A study of Homo sapiens with 5 samples.

Results

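Translation efficiency, which sets an mRNA's ribosome-protected fragments against its total amount, is described here for mRNAs of the integrated stress response in decitabine-treated HL-60 cells. The members were chosen by name: ATF4, ATF5, IFRD1 and PPP1R15B as mRNAs controlled by upstream open reading frames, and ASNS, TRIB3, SESN2, CEBPG, CHAC1 and DDIT4 as target genes of the transcription factor ATF4. Of these 10 genes, 7 were among the 6309 genes of the authors' deposited table, namely all 4 of the first group and ASNS, TRIB3 and DDIT4 of the second. SESN2, CEBPG and CHAC1 were not analysed here. The choice of members was made with earlier results of these data known.

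HL-60 is an established human promyelocytic leukaemia line, and the cells were wild type. Both groups were grown for 72 hours, one with decitabine, a cytidine analogue that traps DNA methyltransferases, at 100 nM in 3 additions, the later ones at 24 and 48 hours, the other with the solvent DMSO. The labels list 2 total RNA libraries of each group and 1 pooled library of ribosome-protected fragments, with barcoded linkers marking its samples. The only measurement used is 1 coefficient per gene with its p-value, so there is no value per library, the depth is unknown and no SD or n can be given. Wells were seeded in duplicate with no word on separate cultures, so the p-values cover at most the variation among these samples, which may be technical. The model is not stated, so it is unknown how much of that variation the p-values and the intervals built from them cover. The table held 8 of 8 promyelocyte markers fixed for the cell line (MPO and ELANE among them), 0 of 5 erythroid, 0 of 5 lymphoid and 2 of 5 monocyte and macrophage markers (ITGAM and CD68); being listed says nothing of a level.

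In the integrated stress response, any of several kinases phosphorylates the alpha subunit of the initiation factor eIF2, which turns eIF2 from a substrate into an inhibitor of its exchange factor eIF2B and slows initiation on most mRNAs. A few mRNAs carry short upstream open reading frames (uORFs) that keep ribosomes from the main coding sequence, and when active eIF2 is scarce more ribosomes pass them, so their translation efficiency rises. ATF4 is the best known of these, and the ATF4 protein then switches on genes of amino acid supply, of stress adaptation and of feedback. Targets such as ASNS are induced mainly at the level of transcription, so a measure of translation efficiency sees them only in part.

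ATF4 acts on its target genes by binding, together with a C/EBP partner, the C/EBP-ATF response element. The motif TGATGNAA was searched on both strands in RefSeq promoter windows (GRCh38.p14) of 300 bases, 250 before and 50 after an annotated transcription start. It occurred in 5 of the 20 windows of the 10 genes, 1 in each of 5 genes, and in 3.62% of all 35116 windows; a gene can have several overlapping windows. The matches are shown 5′ to 3′ on the strand of the gene, with the motif or its reverse complement in capitals, because this element is how ATF4 recognises a target, which the translation measurement does not read. A match describes letters and is not evidence of binding.
ASNS (chr7:97872458-97872487, minus strand, first capital 68 bases before the start): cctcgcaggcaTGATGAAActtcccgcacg
CEBPG (chr19:33374060-33374089, plus strand, 42 bases before): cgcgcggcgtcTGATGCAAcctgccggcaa
CHAC1 (chr15:40953251-40953280, plus strand, 209 bases before): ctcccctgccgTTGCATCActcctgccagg
PPP1R15B (chr1:204412026-204412055, minus strand, 227 bases before): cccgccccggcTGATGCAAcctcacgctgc
IFRD1 (chr7:112452065-112452094, plus strand, base 19 of the transcript of the most downstream start): gctctccatgtTGATGAAAttcattcttta
The ASNS and CEBPG matches lay close to the start, those of CHAC1 and PPP1R15B further upstream, and that of IFRD1 inside the transcript of 1 of its 4 annotated starts. The windows of ATF4, ATF5, TRIB3, SESN2 and DDIT4 did not hold these letters. Several members have more than 1 annotated start, with 4 windows for IFRD1, 3 each for ATF5 and TRIB3 and 2 each for ATF4, ASNS and CEBPG. The whole-gene spans of ASNS and TRIB3 reach further upstream than any of their windows, so the search may not cover every start. Transcripts from different starts can differ in the uORFs they carry. The table gives a single transcript for each gene. A start of the terminal oligopyrimidine (TOP) type, here a C followed by at least 4 bases that are C or T, opened the transcript in 1 window of IFRD1 and 2 of TRIB3, or 3 of the 20 windows in all. It did so in 4.07% of all windows and in 57.7% of the 78 windows of ribosomal protein genes, the class known for it.

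None of the 7 mRNAs changed past the threshold, an adjusted p-value below 0.05 in the authors' deposited table, against 0.808% of all 6309 genes (51 genes; 40 higher, 0.634%, and 11 lower, 0.174%). None had an unadjusted p below 0.05 either, against 10.3% of all genes. After subtraction of the median of all genes from every coefficient, again none passed, against 0.586% of all genes. The 4 uORF-controlled mRNAs all had coefficients above 0, with a median of 0.19, and the 3 ATF4 targets all had coefficients below 0, with a median of -0.13, in the authors' deposited table. For comparison, the median of all genes was 0.09 and 65% of all genes were above 0. The 4 uORF-controlled mRNAs lay above the median of all genes, IFRD1 by only 0.01, and the 3 targets below it. With the median of all genes as zero, the medians were 0.10 for the uORF-controlled mRNAs and -0.23 for the targets. As deposited, with no such subtraction, the median of the targets was -0.34 without the 25% of genes with the largest implied SE. That setting leaves out TRIB3. The split between the groups is a description of 7 values, each of which has an interval that includes 0. The members were also chosen with earlier results of these data known.

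The coefficient is on a log scale whose base is not stated. It was read as a natural log, since the column names are those of R's generalised linear models, and read as log2 all folds below would be nearer to 1. A positive value was read as higher translation efficiency with decitabine. The error beside it is the standard error implied by the coefficient and its p-value, and 95% intervals are built from it.

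**Figure D1:**
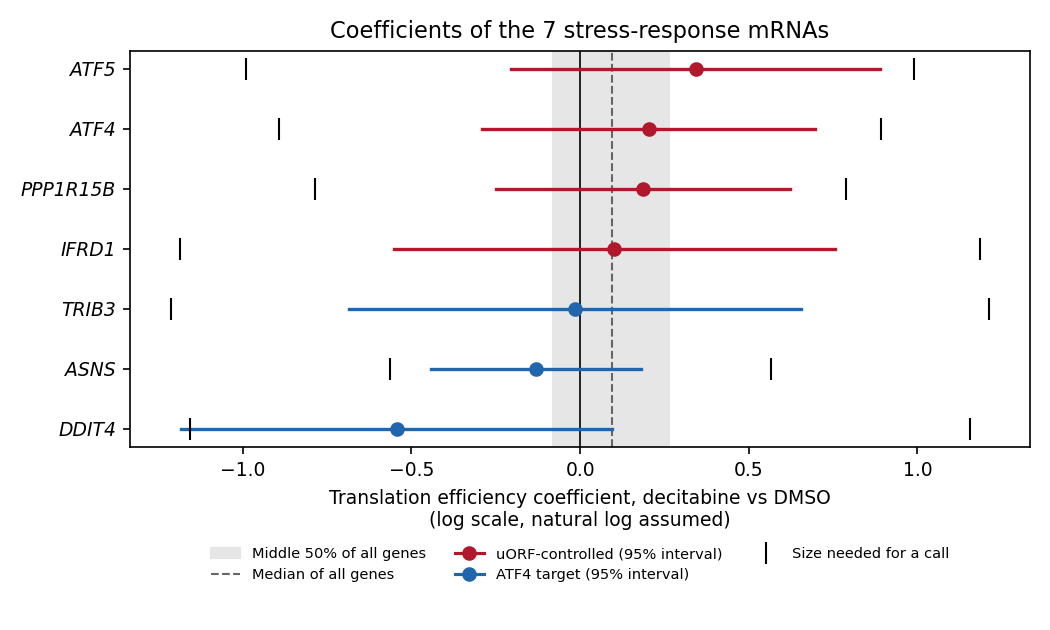
Translation efficiency coefficients (x axis, log scale with natural log assumed, decitabine against DMSO) of the 7 mRNAs in the authors' deposited table; points are coefficients, lines 95% intervals from the implied standard error, ticks the size each gene would have needed for a call, the band the middle 50% of all genes and the dashed line their median of 0.09. Every interval includes 0 and every point lies inside its ticks, with ATF5 highest at 0.34 and DDIT4 lowest at -0.54.

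ATF4 (transcript ENST00000337304), on chromosome 22 from 39520559 to 39522686 (whole-gene span, GRCh38.p14), encodes the main effector of the response, and its mRNA carries a pair of uORFs of which the second overlaps the coding sequence. Its coefficient was 0.20 ± 0.25 in the authors' deposited table (implied SE; adjusted p = 0.841). On a natural log scale this is 1.23 times the DMSO level, with a 95% interval from 0.748 to 2.01 times. On a log2 scale the same value would be 1.15 times, from 0.818 to 1.62. Its coefficient stood at percentile 67.5 of all genes and its implied SE at percentile 49.6, so it was measured with about the precision of a typical gene here. A coefficient of about 0.89 in size, or 2.44-fold, would have been needed for a call.

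ATF5 (transcript ENST00000423777), on chromosome 19 from 49928906 to 49933935, encodes a factor closely related to ATF4 whose mRNA has a similar arrangement of uORFs. It had the highest coefficient of the 7 mRNAs, 0.34 ± 0.28 in the authors' deposited table (implied SE; adjusted p = 0.73), or 1.41 times the DMSO level with an interval from 0.815 to 2.43. That put it at percentile 82.8 of all genes. It exceeded ATF4 by 0.14 ± 0.38 (SE of the difference, taking both errors as independent), a difference smaller than its error.

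PPP1R15B (transcript ENST00000367188), on chromosome 1 from 204395826 to 204411817, encodes CReP, the constitutive targeting subunit of the phosphatase that removes the phosphate from eIF2 alpha, and its uORFs allow it to stay translated during stress. Its coefficient was 0.19 ± 0.22 in the authors' deposited table (implied SE; adjusted p = 0.833), or 1.20 times the DMSO level with an interval from 0.78 to 1.86. Among the 4 uORF-controlled mRNAs this was the smallest implied SE, at percentile 39 of all genes. ATF4 exceeded it by 0.02 ± 0.34, a difference far smaller than its error.

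IFRD1 (transcript ENST00000005558), on chromosome 7 from 112423174 to 112477203, encodes a transcriptional co-regulator that acts with histone deacetylase complexes, and a uORF controls both the translation and the decay of its mRNA. Its coefficient of 0.10 ± 0.33 in the authors' deposited table (implied SE; adjusted p = 0.954) was the lowest of the 4 and stood at percentile 51.1 of all genes. Its interval ran from 0.575 to 2.13 times the DMSO level. After subtraction of the median of all genes, 0.01 was left. IFRD1 was among the less precise members, with an implied SE at percentile 74.1, and a coefficient of 1.18 would have been needed for a call.

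Among the targets, ASNS (transcript ENST00000175506), asparagine synthetase, was the most precisely measured, with an implied SE at percentile 17.3 of all genes. The gene lies on chromosome 7 from 97851677 to 97928441. Its coefficient was -0.13 ± 0.16 in the authors' deposited table (implied SE; adjusted p = 0.838), or 0.878 times the DMSO level with an interval from 0.643 to 1.20. With the median of all genes as zero, the value was -0.23, with an interval from -0.54 to 0.09. A rise of ASNS translation efficiency of more than 1.20-fold thus lay outside its interval as deposited, the tightest such limit among the 7 mRNAs apart from DDIT4.

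TRIB3 (transcript ENST00000422053), a pseudokinase that binds AKT and ATF4 and acts in feedback, lies on chromosome 20 from 380760 to 397559. It had the coefficient nearest to 0, -0.02 ± 0.34 in the authors' deposited table (implied SE; adjusted p = 0.992), and also the largest implied SE of the 7, at percentile 75.8 of all genes. Its interval ran from 0.504 to 1.92 times the DMSO level, which leaves room for changes of close to 2-fold in either direction.

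DDIT4 (transcript ENST00000307365), on chromosome 10 from 72273924 to 72276036, encodes REDD1, an inhibitor of mTORC1 that acts through the TSC complex. It had the lowest coefficient, -0.54 ± 0.33 in the authors' deposited table (implied SE; adjusted p = 0.583), and the smallest unadjusted p of the 7, 0.0954. On a natural log scale this is 0.581 times the DMSO level and on a log2 scale 0.686 times, and the 95% interval of the coefficient ran from -1.18 to 0.10. The coefficient stood at percentile 2.58 of all genes, while its implied SE was at percentile 71.9. Recomputed from the authors' deposited table with the median of all genes as zero, the value was -0.64 (unadjusted p = 0.0501, adjusted p = 0.627), which did not pass. As deposited, the coefficient amounted to 47% of the size needed for a call, more than for any other of the 7 mRNAs, where this share ran from 1.31% for TRIB3 to 34.6% for ATF5.

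From highest to lowest, the order was ATF5, ATF4, PPP1R15B, IFRD1, TRIB3, ASNS and DDIT4. Of the 6 pairs of neighbours, only ASNS and DDIT4 differed by more than 1 SE of the difference, by 0.41 ± 0.36, and each neighbour interval included 0. Of all 21 pairs, 1 had a 95% interval that left out 0, the extremes ATF5 and DDIT4, with a difference of 0.89 ± 0.43 (0.05 to 1.73). That pair was picked out by its values among 21, so its interval is a description. ATF4 exceeded DDIT4 by 0.75 ± 0.41 and ASNS by 0.33 ± 0.30, and both intervals included 0 (-0.06 to 1.55 and -0.25 to 0.92).

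**Figure D2:**
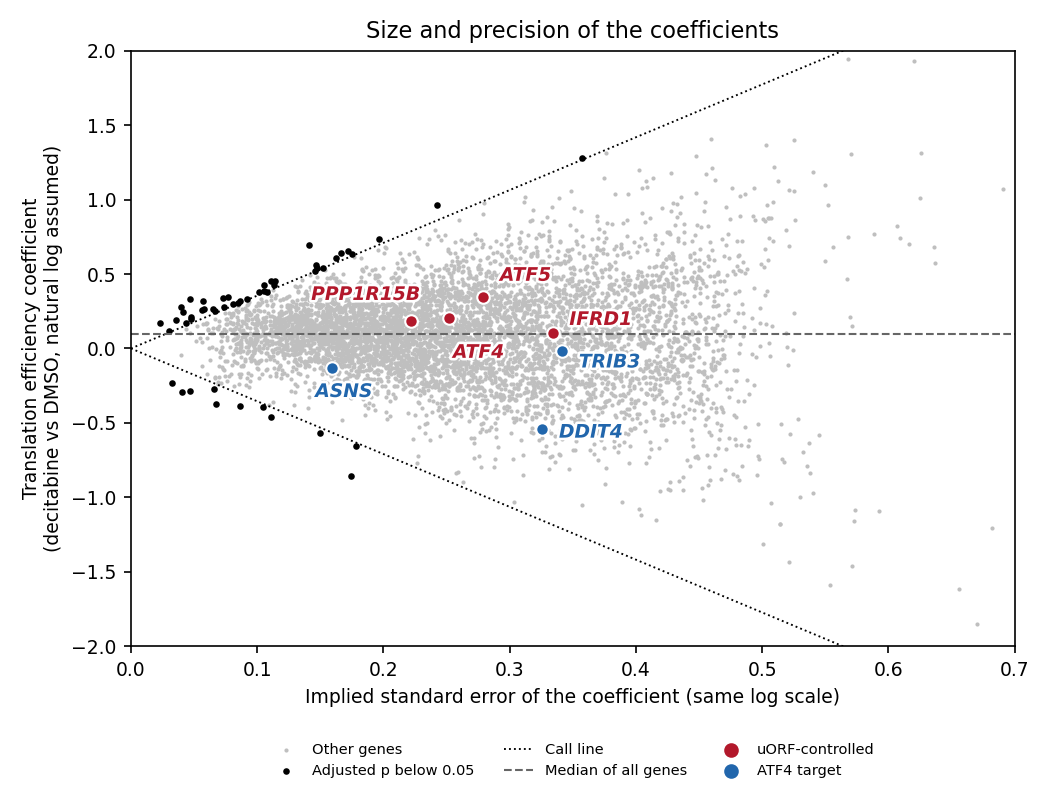
Each gene's coefficient (y axis, log scale with natural log assumed) against its implied standard error (x axis, same scale), with the 7 mRNAs in colour, genes at an adjusted p below 0.05 in black and dotted lines at the size that separates calls; 6 genes lie outside the axes. Black points sit mostly at small standard errors, while the 7 mRNAs, at 0.16 for ASNS to 0.34 for TRIB3, sit in the body of the cloud.

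What a call needed differed between the members. With the largest p called as the cut, the size needed at each gene's implied SE was 0.56 for ASNS, 0.79 for PPP1R15B, 0.89 for ATF4, 0.99 for ATF5, 1.16 for DDIT4, 1.18 for IFRD1 and 1.21 for TRIB3. These sizes are approximate, since a further gene could have been called at a slightly larger p. In folds this ran from 1.76 for ASNS to 3.36 for TRIB3. Coefficients clearly below these sizes could not have been called for these mRNAs. No source used here states if footprints were counted over the coding sequence or the whole transcript. For a uORF-bearing mRNA, footprints on the uORF would count toward the second but not the first, so the 4 coefficients of that group cannot be split into uORF and coding sequence.

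The other mRNAs with a known regulatory uORF were spread around the same values. Of 12 listed, 8 were in the table and none passed the threshold, which 0.808% of all genes did. Of the 8, 5 had a coefficient above 0 and 3 below, and 65% of all genes were above 0. The median was 0.16 in the authors' deposited table. The highest was AMD1, the polyamine enzyme whose uORF peptide senses polyamines, with 0.49 ± 0.32 in the authors' deposited table (implied SE; adjusted p = 0.618). CEBPA, the myeloid transcription factor whose uORF sets the ratio of its isoforms, had the smallest p, with 0.20 ± 0.13 in the authors' deposited table (adjusted p = 0.618). The lowest was MDM2, the p53 ubiquitin ligase, with -0.25 ± 0.29 in the authors' deposited table (adjusted p = 0.829). EPRS1, the glutamyl-prolyl tRNA synthetase, was the most precise of the list with -0.01 ± 0.08 there. PPP1R15A, DDIT3, SLC35A4 and CDKN1B of this list were not analysed here.

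Upstream of the uORF mRNAs, the eIF2 alpha kinases and their regulators were all 10 in the table. None passed, against 0.808% of all genes. In the authors' deposited table the median of the list was 0.13, with 7 above 0 and 3 below, and 65% of all genes were above 0. EIF2AK3 (PERK), the kinase of endoplasmic reticulum stress, was highest with 0.37 ± 0.31 (implied SE), and EIF2AK2 (PKR), the kinase activated by double-stranded RNA, was lowest with -0.61 ± 0.42 in the authors' deposited table. EIF2AK4 (GCN2), the amino acid sensor, had 0.33 ± 0.30 and EIF2AK1 (HRI), the kinase of haem and mitochondrial stress, -0.12 ± 0.17 in that table. In the authors' deposited table GCN1, which activates GCN2 on stalled ribosomes, had the smallest p with 0.20 ± 0.10 (adjusted p = 0.485). These values are translation efficiencies of the kinase mRNAs and not activities of the kinases.

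Subunits of eIF2, eIF2B and the eIF2 alpha phosphatase were likewise all 11 in the table. None passed the threshold, against 0.808% of all genes, and their median was 0.10. Subunits of eIF2B lay at both ends. EIF2B5, the catalytic epsilon subunit, was highest with 0.53 ± 0.18 (implied SE; unadjusted p = 0.00354, adjusted p = 0.161), and EIF2B2, the beta subunit, was lowest with -0.91 ± 0.38 (unadjusted p = 0.0155, adjusted p = 0.315) in the authors' deposited table. EIF2S1, the subunit that carries the regulatory phosphate, had 0.24 ± 0.22 there.

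Factors of start codon choice and reinitiation, which let ribosomes resume scanning after a uORF, had 8 of 10 members in the table. None passed the threshold, against 0.808% of all genes, and the median was 0.13 in the authors' deposited table. DENR, which with MCTS1 promotes reinitiation after short uORFs, was highest with 0.71 ± 0.26 (implied SE; unadjusted p = 0.00735, adjusted p = 0.211), whereas its partner MCTS1 had 0.01 ± 0.21 in the authors' deposited table. EIF4G2 (DAP5), a scaffold of alternative initiation, had the smallest p with 0.24 ± 0.08 (unadjusted p = 0.00407, adjusted p = 0.169), and EIF2D was lowest with -0.04 ± 0.32 in the authors' deposited table.

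Other ATF4 targets were listed in 4 groups, and of 35 genes in the table none passed, with a median of 0.11 in the authors' deposited table. The amino acid transporters had coefficients above both 0 and the median of all genes in 7 of 7 members, with a median of 0.19. Among all genes, 65% were above 0 and 3154 of 6309 above that median, and the list was not tested as a set. SLC7A5, the light chain of the leucine transporter LAT1, was highest with 0.38 ± 0.17 (implied SE; adjusted p = 0.383), its heavy chain SLC3A2 had 0.19 ± 0.13, and SLC1A4 was lowest with 0.11 ± 0.13 in the authors' deposited table. Of the 7, SLC7A5 and SLC38A2, a sodium-coupled glutamine transporter with 0.26 ± 0.13, had an unadjusted p below 0.05, a level that 10.3% of all genes reached.

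Enzymes of amino acid synthesis and one-carbon metabolism lay at the level of all genes, with a median of 0.09 over 8 genes in the authors' deposited table. GPT2, an alanine transaminase, was highest with 0.35 ± 0.24 (implied SE) and GOT1, an aspartate transaminase, lowest with -0.15 ± 0.26. Of 11 aminoacyl-tRNA synthetases, the median was 0.11. NARS1, the asparaginyl-tRNA synthetase, which uses the product of ASNS, was highest with 0.28 ± 0.10 (unadjusted p = 0.00444, adjusted p = 0.176), and SARS1, the seryl-tRNA synthetase, was lowest with -0.22 ± 0.21 in the authors' deposited table.

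The remaining stress effectors had a median below 0, as the 3 target members did. It was -0.07 over 9 of 20 listed genes, with 6 below 0, in the authors' deposited table. The other groups of ATF4 targets had medians above 0, namely 0.09, 0.19 and 0.11. HERPUD1, a component of protein degradation at the endoplasmic reticulum, was lowest with -0.40 ± 0.24 (implied SE; adjusted p = 0.596), and VEGFA, the angiogenic growth factor, was highest with 0.58 ± 0.44 in the authors' deposited table. XPOT, the tRNA exporter, had the smallest p in the authors' deposited table, with 0.22 ± 0.13 (adjusted p = 0.569).

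**Figure D3:**
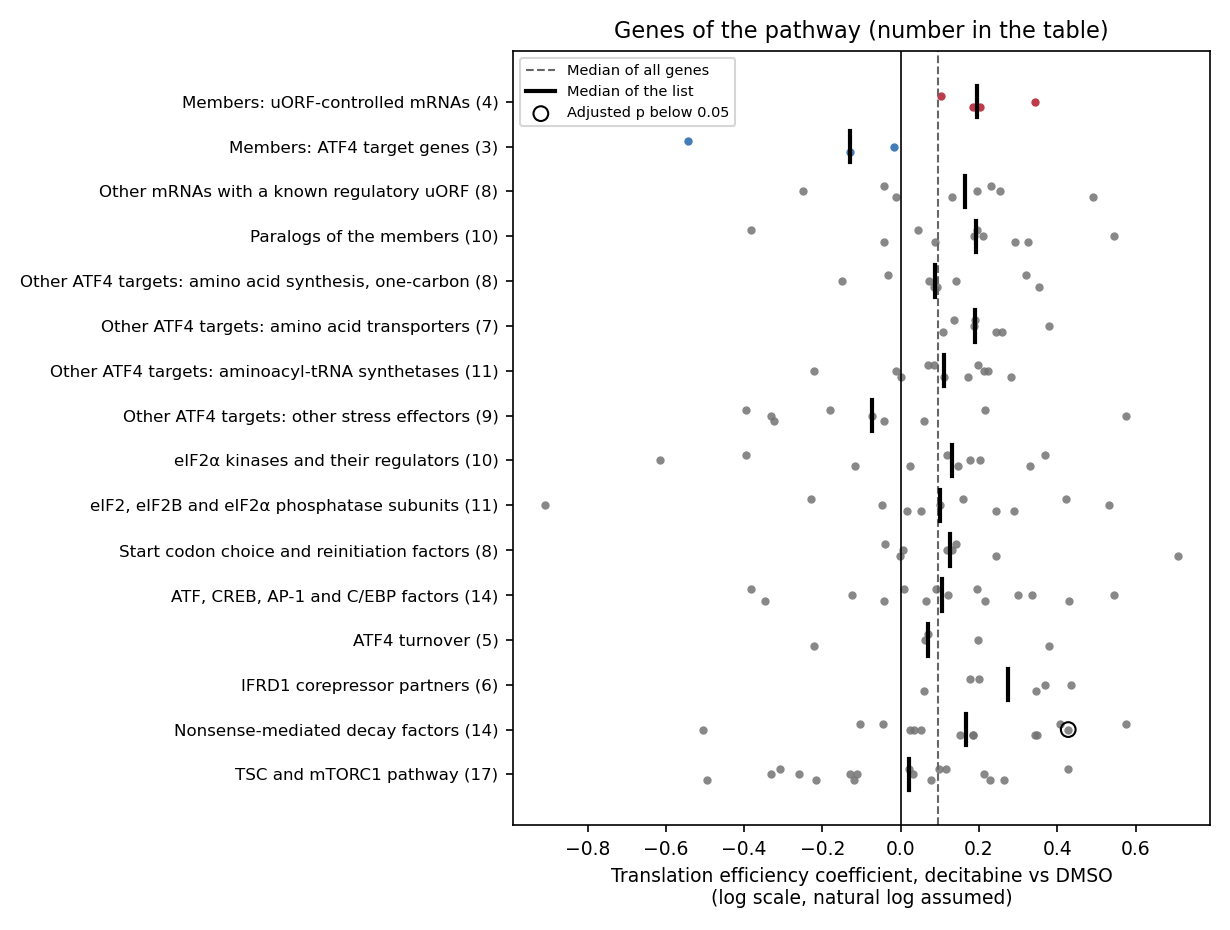
Coefficients (x axis, log scale with natural log assumed) of the members and of 14 lists of related genes in the authors' deposited table, 1 point per gene, with thick bars at each list's median and a ring around the only call, SMG1. List medians run from -0.13 for the target members to 0.27 for the IFRD1 corepressor partners, around the dashed median of all genes at 0.09.

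Genes listed by name as paralogs of the members had a median of 0.19 over 10 genes in the authors' deposited table. None passed, against 0.808% of all genes. The C/EBP names on this list, CEBPZ among them, relate by name to CEBPG, which was not analysed here. IFRD2, the paralog of IFRD1, had 0.29 ± 0.23 (implied SE), and TRIB1, the paralog of TRIB3, had 0.19 ± 0.15 in that table. The C/EBP factors, partners of ATF4 on its response element, stood at both ends of this list: CEBPD was highest with 0.55 ± 0.26 (adjusted p = 0.428) and CEBPE, a factor of granulocyte maturation, lowest with -0.38 ± 0.13 in the authors' deposited table (adjusted p = 0.153). Recomputed from the authors' deposited table with the median of all genes as zero, CEBPE was lower past the threshold (adjusted p = 0.0388), against 0.507% of all genes called lower in that way. The wider list of ATF, CREB, AP-1 and C/EBP factors had 14 genes in the table, the same genes at its ends, a median of 0.11 and no call as deposited.

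None of the listed proteins that act on IFRD1 or ATF4 passed, against 0.808% of all genes. The list of IFRD1 corepressor partners had a median of 0.27 and 6 of 6 coefficients above 0, against 65% of all genes. Of the 6, 5 lay above the median of all genes. SIN3B was highest at 0.44 ± 0.30 (implied SE), SIN3A lowest at 0.06 ± 0.15, and NCOR1 had 0.37 ± 0.17 in the authors' deposited table (adjusted p = 0.406). ATF4 turnover factors had a median of 0.07 over 5 genes. RBX1, the RING subunit of the ubiquitin ligase that marks ATF4, was highest with 0.38 ± 0.20, and FBXW11, one of its substrate receptors, lowest with -0.22 ± 0.31 in that table.

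Nonsense-mediated decay degrades the mRNAs of ATF4 and IFRD1 among others, since a uORF stop codon can be read as premature. Of 14 decay factors in the table, 1 rose (7.14%, against 0.634% of all genes called higher) and 13 did not pass, with a median of 0.17. A single call sets that share. The call was SMG1, the kinase that phosphorylates UPF1, with 0.43 ± 0.11 in the authors' deposited table (implied SE; adjusted p = 0.029), but with the median of all genes as zero its adjusted p was 0.225. UPF2 was lowest with -0.51 ± 0.23 (adjusted p = 0.406) and UPF3A highest with 0.57 ± 0.34 in the authors' deposited table. Both are partners of UPF1.

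Downstream of DDIT4 and SESN2, the TSC and mTORC1 list had 17 of 25 members in the table. None passed the threshold, against 0.808% of all genes, and the median was 0.02 in the authors' deposited table. RHEB, the GTPase that activates mTORC1, was highest with 0.43 ± 0.28 (implied SE), NPRL2, a subunit of the GATOR1 inhibitor, lowest with -0.49 ± 0.33, and SEH1L, of GATOR2, had the smallest p with 0.23 ± 0.13. TSC1 and TSC2, the complex through which DDIT4 acts, had -0.22 ± 0.32 and -0.11 ± 0.22 in that table.

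Over all 14 lists, 128 genes were in the table when each was counted once. Of these, 1 passed the threshold (0.781%, against 0.808% of all genes), 14 had an unadjusted p below 0.05 (10.9%, against 10.3%), and the median was 0.12, against 0.09. These shares are close to those of all genes.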

How the data were processed

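The data were a single table of 6309 genes. The submitters' processing notes name UMI-tools 1.1.1, SAMtools 1.11, Bowtie2 and the build hg38. What each tool did, the model, its count filter and the library scaling are not stated there or in the labels. Per the file headers, the deposited columns are a coefficient of the drug on a log scale (taken as a natural log), its two-sided p-value, a q-value and an adjusted p-value, which was checked to be that of Benjamini and Hochberg over all genes. Computed here, with Python 3.11.15, numpy 2.4.6, pandas 2.3.3 and scipy 1.17.1, were implied standard errors (coefficient over the z of its p), 95% intervals, differences between members with independent errors, and the size needed for a call (implied SE times 3.55, the z of the largest p called). The arithmetic was tested on simulated data.

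The members and the 14 lists were chosen with earlier results of these data known. Named genes are every member in the table and, of each list, the gene with the smallest p, those with the highest and lowest coefficient and any call; others named were chosen after their values were seen. Of 179 listed genes, 123 were found by current symbol and 12 by an older one in RefSeq (GRCh38.p14), the source also of gene spans and promoter windows.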

Additional observations from a re-analysis of the deposited data

How the results depend on the processing

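No member passed under any of the 8 alternatives for the members: centring on the median or on the precision-weighted mean of all genes, an adjusted p below 0.1 or 0.01, the Benjamini-Yekutieli adjustment, the authors' q-value, leaving out the 25% of genes with the largest implied SE (which removed TRIB3), and implied SEs widened 1.46 times, the SD of z among the most precise 20% of genes. All 55 member values kept their sign, but only the centrings change coefficients, so under the other settings the sign was fixed in advance. The 0.01 threshold, the Benjamini-Yekutieli adjustment and the widened SEs are stricter than the deposited calls and could not have added a member. The outcomes of the 0.1 threshold and the q-value were also fixed by the deposited values. The lowest deposited adjusted p of a member was 0.583, and the q-value is 0.83 times the adjusted p for every gene. The lowest adjusted p or q of a member was 0.484. Centring by the median turned the medians of 3 lists below 0: amino acid synthesis (-0.00625), ATF4 turnover (-0.0240) and TSC and mTORC1 (-0.0741); centring on the precision-weighted mean gave -0.000887, -0.0186 and -0.0687, which follows from the shift. Among all genes the 40 higher and 11 lower calls became 5 and 32 after centring on the median, and the 51 calls in all became 37 after centring, 19 at 0.01, 18 with Benjamini-Yekutieli and 7 with widened SEs, against 86 at 0.1, 60 with the authors' q-value and 58 of 4732 genes without the largest implied SEs. The call of SMG1 was lost after both centrings, at 0.01 and with Benjamini-Yekutieli, while CEBPE was called lower after both centrings. Calls within the lists were not examined with widened SEs, so SMG1 is not described under that setting. No paired analysis was possible because the table holds no value per library; for the same reason no replicate could be left out, and abundance could not be filtered. Depth is unknown, so the implied SE is the only measure of what could be detected.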
